A study of Homo sapiens with 6 samples.

Results

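The folate carriers, folate receptors and polyglutamate enzymes described here are 6 genes that act on the entry of folate or methotrexate (MTX) into a cell and on how long it stays there, with 2 related thiamine carriers, 8 genes in all. The members were the uptake carriers SLC19A1 and SLC46A1, the receptors FOLR1 and FOLR2, the enzymes FPGS and GGH, and the thiamine carriers SLC19A2 and SLC19A3 of the SLC19 family. Every probe set annotated to a member was taken, 20 of the 54613 non-control probe sets of the array. RNA of Caco2, a human colon cancer line, had been hybridised to Affymetrix HG U133 Plus 2.0 arrays, with 3 arrays of parental cells sensitive to MTX and 3 of cells resistant to 10 µM MTX. The dose follows the study's methods, since the series text writes it in a notation that can also be read as 10 times as much. Both groups were the same line. Resistant cells had been selected with stepwise MTX concentrations and were kept with dialyzed serum in a selective medium that lacked hypoxanthine, thymidine and glycine, whereas parental cells grew in Ham's F12 medium with fetal bovine serum, so medium and resistance cannot be told apart. Whether the resistant cells were a clone or a pool is not given in the sources used here.

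MTX is an antifolate that resembles folate closely enough to use its routes into the cell. SLC19A1, the reduced folate carrier, exchanges folates and MTX for organic anions at neutral pH, whereas SLC46A1, the proton-coupled folate transporter, works in the acid microclimate of the upper small intestine and serves dietary folate absorption. FOLR1 and FOLR2 are folate receptors anchored to the membrane by a lipid that take folate up by endocytosis. Inside the cell FPGS adds glutamates to folates and MTX, which traps them, and GGH, a lysosomal hydrolase, removes these glutamates. Loss of uptake by SLC19A1 and loss of polyglutamate formation are known routes to MTX resistance in cultured cells. SLC19A2 and SLC19A3 resemble SLC19A1 in sequence but carry thiamine.

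The windows around the start sites of the uptake carriers SLC46A1 and SLC19A1 are shown because these are the routes of MTX entry and because SLC46A1 came nearest to the test after FOLR1. Each runs from 250 bases before to 50 bases after an annotated RefSeq start of build GRCh38.p14, on the minus strand, and capitals mark the GC box (GGGCGG or, on the other strand, CCGCCC).

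SLC46A1, chr17:28406163-28406462: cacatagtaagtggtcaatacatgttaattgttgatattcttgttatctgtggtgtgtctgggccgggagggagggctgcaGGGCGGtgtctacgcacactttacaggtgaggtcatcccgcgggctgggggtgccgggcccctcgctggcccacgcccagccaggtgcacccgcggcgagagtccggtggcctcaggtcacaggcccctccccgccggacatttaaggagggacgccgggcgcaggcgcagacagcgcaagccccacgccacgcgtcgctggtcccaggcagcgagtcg

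SLC19A1, start 2 of 4, chr21:45542391-45542690: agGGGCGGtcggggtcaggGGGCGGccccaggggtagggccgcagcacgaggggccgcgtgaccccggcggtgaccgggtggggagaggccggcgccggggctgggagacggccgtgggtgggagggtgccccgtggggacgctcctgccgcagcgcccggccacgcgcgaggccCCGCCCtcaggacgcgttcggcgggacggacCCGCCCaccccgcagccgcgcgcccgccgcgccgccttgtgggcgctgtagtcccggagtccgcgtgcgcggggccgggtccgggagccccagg

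The SLC46A1 window held 1 GC box at a GC content of 65.7%, and the SLC19A1 window 4 at 82.3%. Windows for 5 of the 8 members were found, and 45.0% of all 35116 promoter windows listed by RefSeq held a GC box, with a median GC content of 58.7%. The 4 annotated starts of SLC19A1 gave windows of 47.0% to 82.3% GC with 0 to 4 GC boxes. FPGS, on the plus strand, had 9 GC boxes in the window of its first start (chr9:127802608-127802907). The CCAAT box (CCAAT or ATTGG), held by 34.6% of all windows, was found 2 times at that start of FPGS and 2 times in both windows of SLC19A2, and 0 times in the windows of SLC19A1, SLC46A1 and SLC19A3. A match of letters is a description and not a binding site.

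A signal is given below in array medians, that is, divided by the median of all non-control probe sets of its array. These medians were 10.6 to 12.8 signal units. Parental array 3 stood apart from the other parental arrays. Its correlations to them across the tested probe sets were 0.946 and 0.949, against 0.966 between parental arrays 1 and 2. It was also the parental array nearest to the resistant arrays. Its correlations to those were 0.935 to 0.939, against 0.914 to 0.929 for parental arrays 1 and 2. Calls of members and of other folate and thiamine genes that changed without it are named below, with values for some. Uncalled values could move too, such as SLC19A1 209777_s_at from -0.17 to -0.004 and ABCC5 from 0.18 to 0.33. Of 13 markers of intestinal epithelium 12 were analysed here, and EPCAM, CDH1, KRT8, KRT18, KRT19, KRT20, VIL1 and LGALS4 were tested, with KRT20, VIL1, LGALS4, KRT8 and KRT18 higher in resistant cells. The defining markers CDX2, SI, ALPI and FABP1 had means below the array median in both groups. The epithelial markers summed to 1680 to 2164 array medians on parental and 2605 to 2733 on resistant arrays. Of 4 fibroblast markers LUM was higher in resistant cells, at 2.57 against 0.272 array medians. Its parental mean lay below the array median, so LUM reached the filter for testing only through the resistant arrays. COL1A1 was not called (-0.15 ± 0.18), and COL1A2 and DCN had means below the array median in both groups. These 4 markers summed to 4.51 to 5.29 on parental and 6.93 to 7.71 on resistant arrays. The part of these marker changes in the results was not tested. In such bulk RNA, fewer cells that express a gene and less RNA per cell cannot be told apart.

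Changes are resistant minus parental on the log2 scale, ± SE with 3 arrays per group, with adjusted p-values from limma over the 26563 probe sets whose mean reached the array median. Rose and fell are used for an adjusted p below 0.05. Of the 20 probe sets of the members 13 were tested, for 6 of the 8 genes. FOLR2 and SLC19A3 had no tested probe set. Among the 13, 1 fell and 0 rose in limma, where the background was 4.27% lower and 5.75% higher over all tested probe sets. A count of 1 in 13 is near that background. At an unadjusted p below 0.05 in limma, 2 were higher and 1 lower, against 14.6% and 12.3% of all tested probe sets. The ordinary test of the same model, without limma's sharing of variance over probe sets, called 0 of the 13 in either direction, against 0.745% higher and 0.456% lower over all. The median change of the 13 was -0.04, against 0.004 over all tested probe sets. The groups did not overlap for 3 of the 13, or 23.1%, against 32.1% of all tested probe sets.

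**Figure D1:**
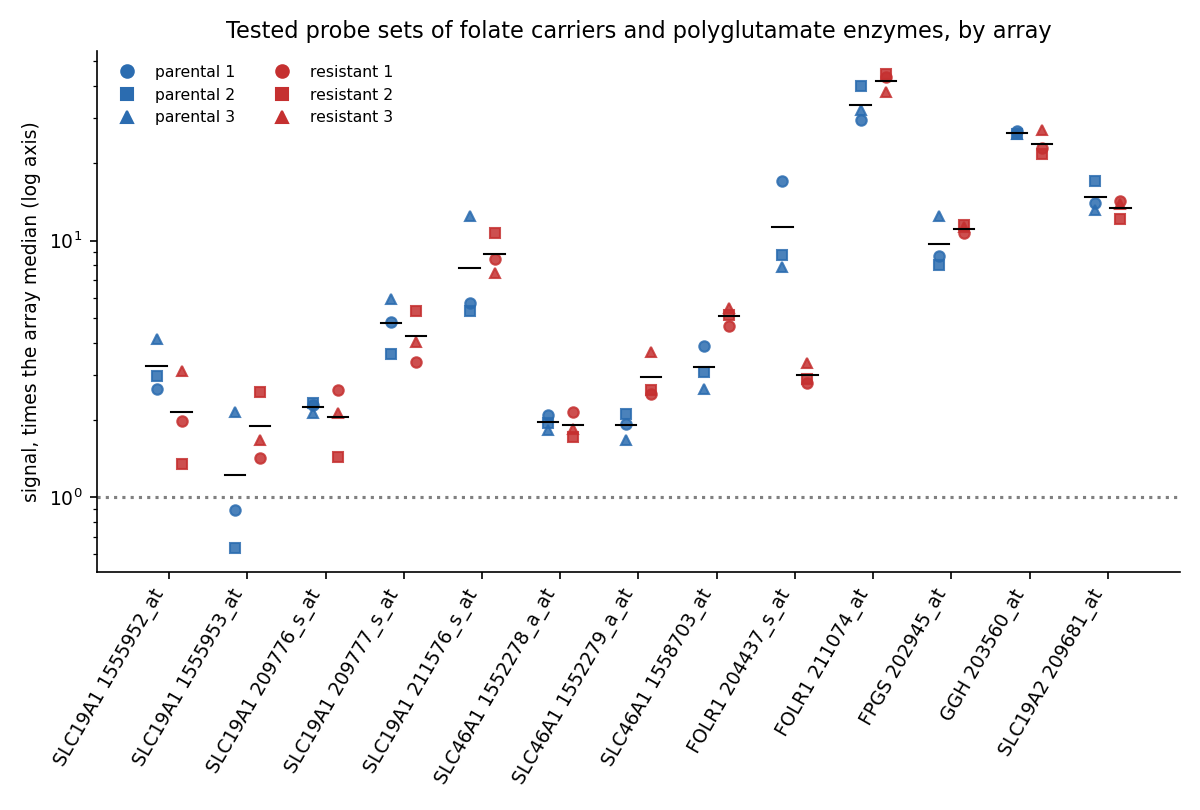
Signal of the 13 tested probe sets on each of the 6 arrays, in array medians on a log axis, with parental arrays in blue, resistant arrays in red, a marker shape for each replicate number, black bars at group means and a dotted line at the array median. The resistant markers of FOLR1 204437_s_at lie from 2.78 to 3.33, below the lowest parental marker at 7.90, and heights of different probe sets are not comparable with each other.

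The first question was whether the carriers by which MTX enters the cell differed. SLC19A1, the reduced folate carrier, gave no call in any of its 5 tested probe sets, and their changes ran from -0.66 to 0.78. The probe set 211576_s_at, of a type that can read several transcripts, had signals of 5.73, 5.30 and 12.5 array medians on parental arrays 1, 2 and 3. Its signals on resistant arrays 1, 2 and 3 were 8.45, 10.7 and 7.48. The groups overlapped because parental array 3 stood above every resistant array, whereas the other parental arrays stood below them. The change was 0.28 ± 0.31 (adjusted p = 0.599, limma), with a 95% interval of -0.40 to 0.96. Without parental array 3 it was 0.67 ± 0.19 (adjusted p = 0.0211, limma), past the test as higher, where 13.5% of all probe sets were higher and 13.2% lower. With all arrays, the upper end of the interval lay at 1.94-fold.

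The other SLC19A1 probe sets did not share a direction. On 209777_s_at, parental arrays read 4.82, 3.63 and 5.94 array medians and resistant arrays 3.37, 5.33 and 4.03, a change of -0.17 ± 0.24 with an interval of -0.72 to 0.37. On 209776_s_at, they read 2.28, 2.33 and 2.13 against 2.61, 1.43 and 2.12, a change of -0.17 ± 0.28. In both the groups overlapped, and the resistant arrays spread more widely than the difference between the means. The probe set 1555952_at read 2.63, 2.97 and 4.14 in parental and 1.98, 1.34 and 3.10 in resistant cells, or -0.66 ± 0.33 (adjusted p = 0.228). Its counterpart 1555953_at went the other way, from 0.892, 0.633 and 2.14 to 1.42, 2.58 and 1.67, or 0.78 ± 0.48 (adjusted p = 0.326), which was 1.28 ± 0.44 (adjusted p = 0.0506) when parental array 3 was left out. The remaining probe sets 209775_x_at and 229639_s_at lay below the array median in the mean and were not tested. The log2 ratio of 1555952_at over 1555953_at was 1.58 ± 0.64 (SD, n = 3) in parental and 0.14 ± 0.96 in resistant arrays, with every resistant array below every parental array. This ratio is uncertain because 1555953_at lay below the array median on 2 parental arrays. The array values do not settle which of these probe sets follows the carrier.

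SLC46A1, the proton-coupled folate transporter, gave higher values in resistant cells in 2 of its 3 tested probe sets, without a call. On 1558703_at, parental arrays 1, 2 and 3 read 3.88, 3.09 and 2.65 array medians, and resistant arrays 4.66, 5.12 and 5.45. Every resistant array lay above every parental array. The change was 0.68 ± 0.20, or 1.60-fold, with an adjusted p of 0.0618 in limma that missed the threshold and a 95% interval of 0.23 to 1.13. Over its 15 alternatives this value stayed between 0.55 and 0.83, with adjusted p-values from 0.0544 to 0.185. On 1552279_a_at, of a type that reads alternative transcripts of a gene, the signals were 1.93, 2.11 and 1.67 against 2.53, 2.61 and 3.67, again without overlap. Its change of 0.61 ± 0.25 had an adjusted p of 0.146. The third tested probe set, 1552278_a_at, read 2.08, 1.95 and 1.83 against 2.15, 1.72 and 1.83, a change of -0.04 ± 0.25 with overlapping groups. The remaining probe set, 233531_at, was too dim to be tested, with parental signals of 0.171, 0.180 and 0.0796 and resistant signals of 1.04, 0.547 and 0.617 array medians. The resistant arrays were higher there as well, although at such levels the table cannot separate signal from background. The log2 ratio of 1558703_at over 1552278_a_at was 0.70 ± 0.19 in parental and 1.42 ± 0.27 (SD, n = 3) in resistant arrays.

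**Figure D2:**
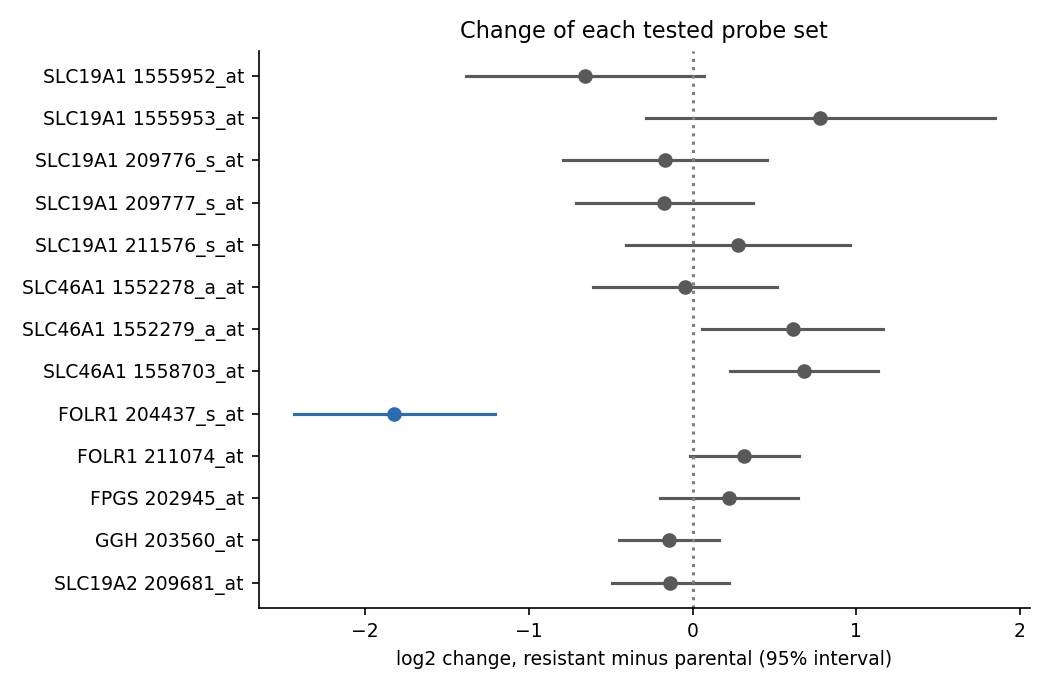
Log2 change (resistant minus parental) of each tested probe set with its 95% interval from limma, with the probe set past an adjusted p of 0.05 in blue, the others in grey and a dotted line at no change. FOLR1 204437_s_at lies at -1.82, while the intervals of the 5 SLC19A1 probe sets and of FPGS, GGH and SLC19A2 include 0.

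Next, the folate receptors were compared. FOLR1, the receptor alpha of epithelial cells, fell on 204437_s_at, which can read several transcripts. Parental arrays 1, 2 and 3 read 17.2, 8.79 and 7.90 array medians, and resistant arrays read 2.78, 2.90 and 3.33. The highest resistant array lay below the lowest parental array, and the parental arrays were spread more widely, with parental array 1 at the top. In means the signal went from 11.3 ± 5.10 to 3.00 ± 0.289 array medians (SD, n = 3). The change was -1.82 ± 0.28, or 3.54-fold lower (adjusted p = 0.00365, limma), with a 95% interval of -2.44 to -1.21. Of all tested probe sets 1.90% were lower by at least 2-fold at this threshold. With any single array left out the change stayed between -2.04, with parental array 3 left out, and -1.48, with parental array 1 left out, and past the test. It was not past it in the test without variance sharing (adjusted p = 0.11).

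The other FOLR1 probe set did not show this decrease. On 211074_at, parental arrays read 29.4, 40.1 and 32.2 array medians, and resistant arrays read 43.4, 44.5 and 38.1. Parental array 2 stood within the resistant range, so the groups overlapped. The change was 0.32 ± 0.15 (adjusted p = 0.209), and its interval of -0.02 to 0.65 does not reach the decrease of the first probe set. Within each array, the log2 ratio of 204437_s_at over 211074_at was -0.78, -2.19 and -2.03 in parental and -3.96, -3.94 and -3.51 in resistant arrays. The difference of the means was -2.14. A direction for FOLR1 as a gene therefore depends on which of its probe sets is read. The 3 ratios of this kind take the probe sets of a gene that differed most, were chosen after the values had been seen, and are a description without a test.

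FOLR2, the receptor of macrophages and placenta, had 2 probe sets, both below the array median on every array. On 204829_s_at, parental arrays read 0.667, 0.289 and 0.850 and resistant arrays 0.171, 0.198 and 0.487 array medians. On 229619_at, they read 0.613, 0.188 and 0.257 against 0.144, 0.0755 and 0.713. The groups overlapped in both, and in limma without the filter the adjusted p-values were 0.556 and 0.821. Of 8 macrophage and leukocyte markers CD14 alone was bright enough to be tested (-0.13 ± 0.33), and PTPRC, CD163 and MRC1 lay below the array median on every array. Summed, these markers gave 8.27 to 19.3 array medians on parental and 9.69 to 12.4 on resistant arrays.

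**Figure D3:**
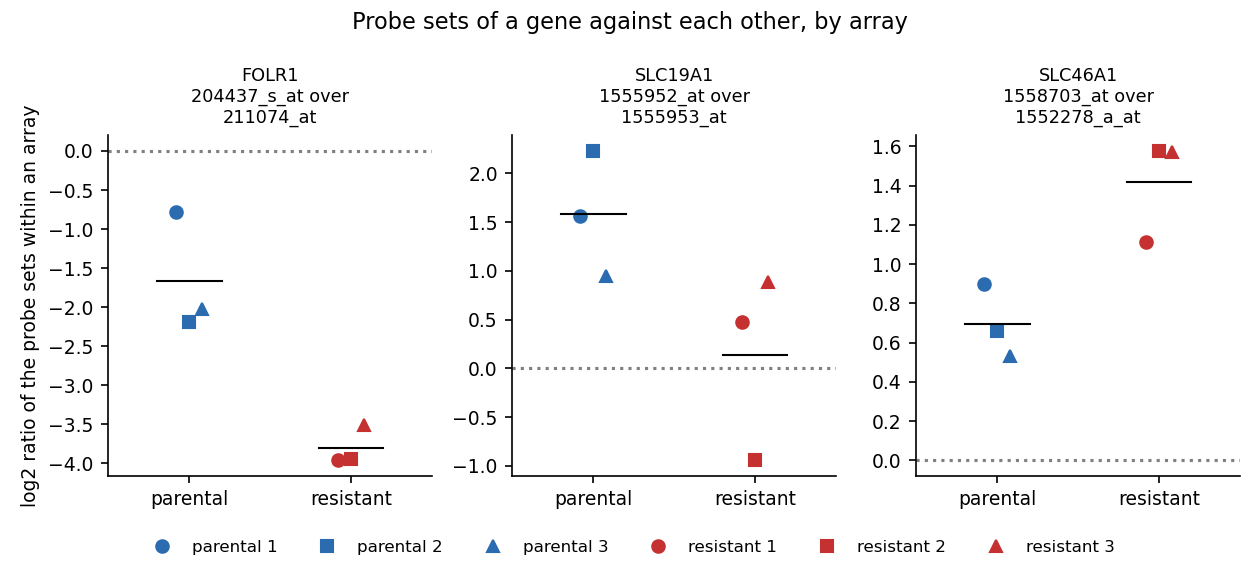
Log2 ratio of 2 probe sets of the same gene within each array, for FOLR1, SLC19A1 and SLC46A1, with parental arrays in blue, resistant arrays in red, marker shapes for replicate numbers, black bars at group means and dotted lines at equal signal. The FOLR1 ratio lies between -2.19 and -0.78 in parental and between -3.96 and -3.51 in resistant arrays.

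The chromosomal surroundings of FOLR1 were described as well, since the folate receptor genes lie side by side on chromosome 11 in the RefSeq gene order. Among the 3 nearest protein-coding genes on either side, ANAPC15, a subunit of the anaphase-promoting complex, gave 0.04 ± 0.20, and INPPL1, an inositol phosphatase, gave 0.25 ± 0.17 (adjusted p = 0.919 and 0.381, limma). FOLR3, a secreted folate receptor, ranged from 0.378 to 1.04 array medians and PHOX2A, a neuronal transcription factor, from 0.198 to 1.31, both too dim to be tested, like FOLR2. TOMT was not analysed here. The tested neighbours ANAPC15 and INPPL1 were not called.

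A second question was whether the enzymes of polyglutamate turnover differed. FPGS, the folylpolyglutamate synthase, was read by 202945_at, at 8.69, 8.02 and 12.5 array medians on parental and 10.7, 11.5 and 11.3 on resistant arrays. As with SLC19A1 211576_s_at, parental array 3 was the highest of all 6 arrays and the other parental arrays were the lowest. The change was 0.22 ± 0.19 (adjusted p = 0.488), with an interval of -0.20 to 0.64. Without parental array 3 it was 0.42 (adjusted p = 0.0543), still short of the test. The upper end of the interval corresponds to a 1.56-fold increase, and its lower end to 0.870 of the parental level.

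GGH, the gamma-glutamyl hydrolase, was not called. Its probe set 203560_at read 26.9, 26.0 and 26.1 array medians on parental arrays and 23.0, 21.8 and 27.0 on resistant arrays. Resistant array 3 lay above all parental arrays and the other resistant arrays lay below them. The change was -0.15 ± 0.14 (adjusted p = 0.536), and the 95% interval ran from -0.45 to 0.16, or from 0.731 to 1.12 of the parental level. Changes of 2-fold in either direction thus lay outside the intervals of both FPGS and GGH.

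For the thiamine carriers, SLC19A2 was read by 209681_at at 14.1, 17.1 and 13.2 array medians in parental and 14.3, 12.1 and 13.9 in resistant cells. The groups overlapped, and the change was -0.14 ± 0.16 (adjusted p = 0.626) with an interval of -0.49 to 0.22. SLC19A3, the second thiamine carrier, was too dim to be tested. Its probe set 239345_at read 0.198, 0.359 and 0.239 on parental and 0.757, 0.415 and 0.626 array medians on resistant arrays, without overlap but below the array median throughout (1.18 ± 0.72, adjusted p = 0.466 in limma without the filter). Its other probe set 220736_at read 0.0721, 0.492 and 1.07 against 0.414, 1.04 and 0.843. The spread among the parental arrays was wider there than the difference between the groups.

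Other genes of folate and thiamine handling were listed by role, 42 in all, of which 37 were analysed here and 24 were tested by their brightest probe set. Of these 2 rose and 2 fell, where the background over all 11849 genes so read was 7.36% higher and 5.04% lower. At an unadjusted p below 0.05, 9 were higher and 2 lower, against 17.3% and 13.5% of all genes. The test without variance sharing called 0 of the 24, against 1.01% higher and 0.608% lower over all genes. The median change of the 24 was 0.15, against 0.01 over all genes. Leaving out parental array 3 gave 10 higher and 3 lower, while the background itself rose to 17.0% higher and 15.2% lower over the 11852 genes then tested. When parental array 1 or one of the resistant arrays was left out, 0 were higher in limma, and when parental array 2 was, 1 was. The 2 genes that fell, SLCO1B3 and ABCC4, stayed called in each of these.

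Among other uptake routes, 1 of 4 tested genes fell and 0 rose in limma, against 5.04% and 7.36% of all genes. The counts were the same at an unadjusted p below 0.05, against 13.5% lower and 17.3% higher over all genes. In the test without variance sharing they were 0 and 0, against 0.608% and 1.01% of all genes. SLCO1B3, an organic anion transporter of hepatocytes that takes up MTX, went from 8.68, 12.1 and 7.73 array medians on parental to 0.252, 0.302 and 0.861 on resistant arrays (-4.53 ± 0.44, adjusted p = 0.000324, limma). All resistant arrays lay below the array median, so the size of this decrease depends on how low signals are treated, and it was -3.39 with an offset of 0.5 array medians added. SLC25A32, which carries folate into mitochondria, gave -0.04 ± 0.13 with an interval of -0.32 to 0.24. The endocytic receptor LRP2 gave -0.66 ± 0.35 (adjusted p = 0.262).

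Among the efflux pumps of the ABC family, 2 of 5 tested genes rose and 1 fell in limma, against 7.36% and 5.04% of all genes. The same counts were found at an unadjusted p below 0.05 in limma, where 17.3% of all genes were higher and 13.5% lower. In the test without variance sharing they were 0 and 0, against 1.01% and 0.608% of all genes. ABCC4, which exports MTX and nucleotides, read 44.2, 36.8 and 56.3 array medians in parental against 19.8, 21.1 and 15.4 in resistant cells, and 3 of its 3 tested probe sets fell (-1.27 ± 0.19 in the brightest, adjusted p = 0.00322, limma). ABCG2, the breast cancer resistance protein, read 11.1, 7.90 and 15.8 against 20.0, 19.7 and 19.2 (0.82 ± 0.23, adjusted p = 0.0487). ABCC3, of the basolateral membrane, read 49.5, 59.5 and 48.1 against 69.5, 75.4 and 77.0 (0.50 ± 0.13, adjusted p = 0.0342). Of its 5 tested probe sets 1 was past the test, and their changes ran from 0.005 to 0.92. The groups did not overlap for any of these 3 pumps, which were named because they were called, nor for 32.1% of all tested probe sets. The calls of ABCG2 and ABCC3 were lost in 11 and 9 of 15 alternatives. ABCC1 and ABCC5 gave 0.13 ± 0.15 and 0.18 ± 0.23.

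Among the folate cycle enzymes that use the imported folate, 0 of 13 tested genes rose or fell in limma. Over all genes 7.36% rose and 5.04% fell. At an unadjusted p below 0.05, 6 of the 13 were higher and 0 lower, against 17.3% and 13.5% of all genes. The test without variance sharing called 0 of the 13, against 1.01% higher and 0.608% lower over all genes. TYMS, the thymidylate synthase, gave 1.55 ± 0.45 (adjusted p = 0.057), from 72.8, 37.1 and 194.7 array medians in parental to 234.3, 229.1 and 244.7 in resistant cells. MTHFD1, a cytosolic enzyme that interconverts one-carbon units, gave 0.81 ± 0.24 (adjusted p = 0.0618). Of TYMS 1 of 3 tested probe sets and of GART, a purine synthesis enzyme, 1 of 6 was past the test, in neither case the brightest. The GART probe sets did not share a direction, with changes from -0.69 to 0.67. Leaving out parental array 3 gave 7 enzymes higher, TYMS, MTHFD1, GART, MTFMT, GCSH, MTRR and ATIC, and 1 lower, MTHFD2, out of 13 and beside that raised background. TYMS was then at 2.18 ± 0.21 (adjusted p = 4.2e-05). FOLH1, the brush border enzyme that removes glutamates from dietary folate, was too dim to be tested on its own probe set. Of the genes of thiamine use, THTPA, a thiamine triphosphatase, gave 0.64 ± 0.18 (adjusted p = 0.0565) and SLC44A4, a carrier of thiamine pyrophosphate in the colon, gave -0.11 ± 0.17. In that group 0 of 2 were called in limma and 0 in the test without variance sharing. At an unadjusted p below 0.05, 1 of the 2 was higher, against 17.3% of all genes. THTPA was past the test in limma with parental array 3 left out (0.65 ± 0.20, adjusted p = 0.0353), beside that raised background.

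**Figure D4:**
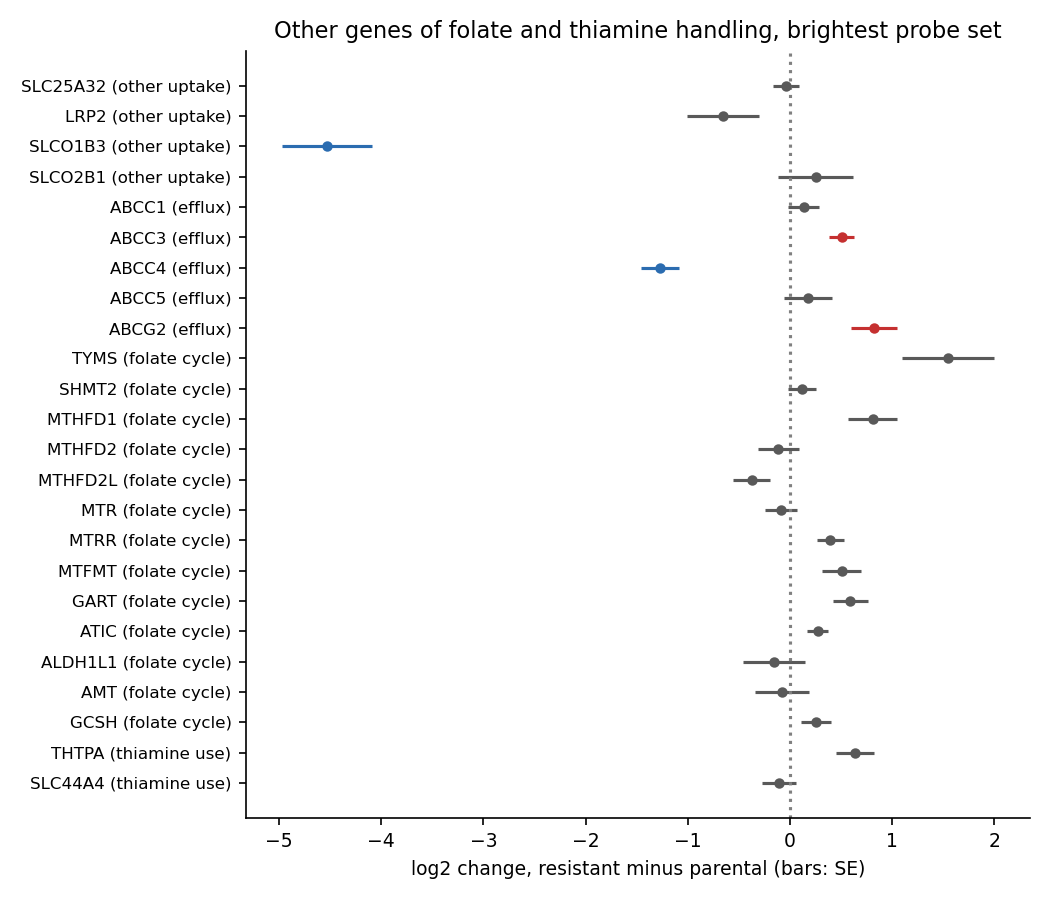
Log2 change (resistant minus parental) with its SE for the brightest probe set of the 24 tested genes of folate and thiamine handling, with the role of each gene in brackets, and genes past an adjusted p of 0.05 in red (higher) or blue (lower). SLCO1B3 at -4.53 and ABCC4 at -1.27 fell, ABCC3 at 0.50 and ABCG2 at 0.82 rose, and the 13 folate cycle enzymes are grey.

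Genes with the pattern most like that of a member were sought over the 6 arrays, by the root mean square difference of log2 values, each less its own mean. The member whose probe set had the smallest adjusted p among the brightest of each gene was SLC46A1 (1558703_at), and the nearest genes were CAPN5, a calpain protease, at 0.06, PROS1, the anticoagulant protein S, at 0.08, and IFI35, an interferon-induced protein, at 0.08. Their differences between the groups were 0.66 ± 0.19, 0.70 ± 0.16 and 0.73 ± 0.18, of which those of PROS1 and IFI35 passed the test (adjusted p = 0.0238 and 0.0317) and that of CAPN5 did not (adjusted p = 0.0546). For FOLR1 204437_s_at, added after its values had been seen, the nearest were PCGF5, a polycomb ring finger protein (0.22), WWOX, an oxidoreductase (0.24), and BEST1, a chloride channel (0.25), with changes of -1.88 ± 0.28, -1.87 ± 0.23 and -2.21 ± 0.56. These likenesses rest on 6 arrays in 2 groups and are a description.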

How the data were processed

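Affymetrix HG U133 Plus 2.0 arrays of 3 parental and 3 MTX-resistant Caco2 samples were used. The authors deposited a linear signal intensity per probe set, and the submitters' notes on processing name MAS5 (version and scaling not given in the sources used here). Groups and replicate numbers came from the titles. Nothing says that samples were separate cultures, so p-values reflect only how far these samples spread, possibly for technical reasons.

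After leaving out 62 controls, intensities were divided by the array median, like the per-array step of the study's methods, whose per-gene step and control strength filter were not applied, with zeros set to 0.05 signal units, and log2 transformed. Probe sets whose mean reached 1 array median were fitted with limma 3.58.1 (intensity trend, two-sided, Benjamini-Hochberg adjustment) in R 4.3.3. The code was tested on simulated data. Probe sets with 1 symbol in the platform annotation (41091, of which 41037 were updated through RefSeq of GRCh38.p14) were named, 1801 had several symbols and 11721 were not listed. The table holds no detection calls. The number of arrays limits the precision.

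The members and lists were chosen with earlier results of these data known. Named were every member probe set, up to 4 called genes of each role of the pathway list or else the 2 largest changes, and the 3 genes nearest to a member. SLC25A32, LRP2, ABCC1, ABCC5, FOLH1, MTHFD2 and the further folate cycle enzymes, markers and neighbours were added outside this rule. Some genes of the pathway list are not reported here. Alternatives were other scalings, filters and treatments of low signals, no intensity trend, a replicate block, each array left out and an equal-variance t-test on the same values, called the test without variance sharing in the results. The study's methods section names no test for the arrays, but the legend of its heat map names a t-test with multiple testing correction. The kind of t-test is not given there, so whether it matches this one is not known.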

Additional observations from a re-analysis of the deposited data

How the results depend on the processing

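The decrease of FOLR1 204437_s_at kept its direction in all 15 alternatives and stayed past the test in 14, the exception being the equal-variance t-test (-1.82, adjusted p = 0.11), which left 0 member probe sets lower. With single arrays left out it ranged from -2.04 to -1.48, and the counts of member probe sets were 0 to 1 higher, the 1 being SLC19A1 211576_s_at without parental array 3 (0.67), and 1 lower throughout. Among values that were not called, SLC19A1 209776_s_at ranged from -0.36 to 0.069 with single arrays left out (0.069 without resistant array 2), and SLC46A1 1552278_a_at from -0.14 to 0.026 (0.001 without parental array 1, 0.026 without resistant array 2).

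Of the other genes, 24 were tested unless another number is given. Among them 1 was higher with quantile normalization, with no further scaling (which moved the median of all tested probe sets to -0.08) and with the mean over the probe sets of each gene (22 tested, 1 lower), 4 with the offset, 3 with the filter at 3 array medians (20 tested), and 0 with no filter (37 tested), without the intensity trend and in the equal-variance t-test (0 lower). With single arrays left out (24 or 25 tested) they ranged from 0 to 10 higher and 2 to 3 lower. At adjusted p below 0.05 and at least 2-fold, the member counts were the same (0 higher, 1 lower).

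With the replicate block, FOLR1 204437_s_at gave -1.82 (adjusted p = 0.00546) and no call among members changed. Among the other genes SLCO1B3 and ABCC4 stayed lower, but 0 of the 2 higher genes were shared: ABCG2 and ABCC3 lost their calls (adjusted p = 0.0535 and 0.0669) and TYMS and MTHFD1 gained one (0.0267 and 0.0308). Over all probe sets the block gave 1265 higher and 828 lower, against 1528 and 1135. Deviations of arrays with the same number correlated at -0.02 in each pair, so the numbers were not taken as a pairing. The cause of these shifts was not tested.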
